A study of Homo sapiens with 18 samples.

Results

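The 8 genes described here encode proteins that mark mitochondria for removal or build the autophagosome that takes them up. They are BNIP3, BNIP3L and FUNDC1 (mitophagy receptors), PINK1 (a mitochondrial kinase), MAP1LC3B and GABARAPL1 (ATG8 proteins), SQSTM1 (a cargo receptor) and ULK1 (the initiation kinase). They were taken by symbol from the 61806 genes of a count table, and all 8 were among the 19743 genes that passed the filter on low counts. The libraries came from HepG2, a human hepatoma cell line, and from APOA4-KO, a HepG2 line edited with CRISPR-Cas9 in APOA4, which encodes a lipid-carrying plasma apolipoprotein. Poly(A) RNA of each line was sequenced without hypoxia (0 h) and after 24 h and 48 h of hypoxia at 1% oxygen, which gave 6 groups of 3 libraries. No cells without hypoxia were sequenced at 24 h or 48 h, so that hypoxia and time in culture cannot be told apart. Neither can the edit be told apart from other differences between the edited line, grown from single colonies, and its parent. The labels do not say whether the 3 libraries of a group came from separate cultures, so the p-values measure the spread between libraries, which may be technical.

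Mitophagy is the removal of mitochondria by autophagy. BNIP3 and its paralogue BNIP3L (also called NIX) sit in the outer mitochondrial membrane and bind ATG8 proteins of the growing autophagosome directly, and both are known targets of hypoxia-inducible factors. FUNDC1 is a further receptor of that membrane whose activity is set by phosphorylation, and PINK1 starts a separate route by phosphorylating ubiquitin on damaged mitochondria. Protein abundance, phosphorylation and autophagic flux were not measured here, so every value below is a transcript level. In bulk libraries fewer cells that express a gene cannot be told apart from less of its RNA in each cell.

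Library totals ranged from 76481820 to 91604947 counts. The labelled liver lineage was visible in all 18 libraries: 8 hepatocyte-lineage markers summed to 49986 to 75742 CPM (counts scaled to a common library size after TMM normalization), against 28.4 to 53.7 CPM for 5 fibroblast markers, 39.1 to 82.8 CPM for 5 leukocyte markers and 8.34 to 15.7 CPM for 3 endothelial markers. In the hepatocyte-lineage sum ALB, APOA1, APOB, SERPINA1 and TF had 4381 CPM or more in every library. The lower markers were AFP (128 to 1538 CPM), FGB (100 to 852 CPM) and TTR (41.2 to 174 CPM). All 8 differed between the lines at each time (edgeR adjusted p under 0.05), as did 30.5%, 48.1% and 50.8% of all tested genes at 0 h, 24 h and 48 h. Of the 8, 6, 6 and 7 were higher in APOA4-KO and 2, 2 and 1 lower. Differences of 2-fold or more were reached by 3, 4 and 3 of them, beside 851, 1535 and 2676 of all 19743 tested genes. Most of the fibroblast sum was PDGFRB (26.5 to 51.6 CPM) and most of the leukocyte sum was CD68 (27.3 to 73.4 CPM). APOA4 transcripts were present in both lines, at successive means of 9.02, 20.2 and 20.1 CPM in HepG2 and of 7.71, 7.93 and 8.21 CPM in APOA4-KO. For APOA4 in APOA4-KO against HepG2, edgeR gave successive log2 fold changes of -0.23 (adjusted p = 0.040), -1.35 (adjusted p = 6.6e-11) and -1.29 (adjusted p = 9.0e-11). Why APOA4 transcripts remained in the edited line was not tested. Counts per gene do not show the edit itself, so APOA4-KO is used here as the label of the line. EPO, the hypoxia marker of the study, had means of 5.26, 5.82 and 13.4 CPM in HepG2 and a mean of 8.58 CPM at 0 h and 14.4 CPM at 24 h in APOA4-KO, where the highest 48 h library had 13.6 CPM. Of 16 other genes known to respond to hypoxia, 13 were higher than at 0 h in HepG2 at 24 h, 14 at 48 h, and 14 in APOA4-KO at each time, and none was lower.

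Promoter windows are shown because BNIP3 is a known target of hypoxia-inducible factors, and these factors bind the letters ACGTG or GCGTG. RefSeq windows on GRCh38.p14, running from 250 bases before a transcription start to 50 bases from it on, matched 6 of the 8 genes (BNIP3, FUNDC1, MAP1LC3B, GABARAPL1, SQSTM1 and ULK1). Of all 35116 windows in that collection, 21.4% held ACGTG on either strand, 36.5% held GCGTG and 48.45% held at least 1 of them. The windows of BNIP3 (chr10:131981874-131982173, minus strand) and MAP1LC3B (chr16:87392086-87392385, plus strand) held the most matches. They are printed 5′ to 3′ on the strand of the gene, with matches to either motif on either strand in capitals.
BNIP3: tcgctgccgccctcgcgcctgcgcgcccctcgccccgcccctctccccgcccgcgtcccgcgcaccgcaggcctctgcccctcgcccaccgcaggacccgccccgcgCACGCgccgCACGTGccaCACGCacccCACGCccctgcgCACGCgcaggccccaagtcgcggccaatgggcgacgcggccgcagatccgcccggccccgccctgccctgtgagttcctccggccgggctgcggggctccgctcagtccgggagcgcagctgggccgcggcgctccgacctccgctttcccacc
MAP1LC3B: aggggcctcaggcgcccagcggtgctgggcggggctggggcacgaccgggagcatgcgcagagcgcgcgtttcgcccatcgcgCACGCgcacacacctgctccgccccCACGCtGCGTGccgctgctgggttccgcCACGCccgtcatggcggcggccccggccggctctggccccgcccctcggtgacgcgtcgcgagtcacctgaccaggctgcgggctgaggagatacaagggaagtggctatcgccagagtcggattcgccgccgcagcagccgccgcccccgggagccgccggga
BNIP3 had 2 matches to ACGTG, which are the same palindromic site read on both strands with first bases at -134 and -133, and 4 matches to GCGTG between -143 and -104, counted from the transcription start. MAP1LC3B had 4 matches to GCGTG between -167 and -114 and 0 to ACGTG, and ULK1 had 1 to GCGTG. The windows of FUNDC1, GABARAPL1 and SQSTM1 held neither motif. A match is a run of letters and not a measured binding site.

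BNIP3 and BNIP3L rose in hypoxia in both lines, to higher levels in APOA4-KO, and in each comparison with 0 h the other 6 genes changed by less. At each time, most of the 16 other hypoxia genes given above were also higher in APOA4-KO than in HepG2. A gene was called changed where the Benjamini-Hochberg adjusted p (padj, used for every test below) was under 0.05 in edgeR's quasi-likelihood test over all 19743 genes. In HepG2, 3 of the 8 genes were called at 24 h against 0 h, where 29.6% of all tested genes were called, and 5 at 48 h, where 27.7% were called. In APOA4-KO, 6 of 8 were called at 24 h and 6 at 48 h, beside 44.4% and 49.9% of all tested genes. The median log2 fold change of the 8 genes was 0.01 and -0.02 in HepG2 at 24 h and 48 h and 0.16 and 0.44 in APOA4-KO, against medians of all tested genes of -0.03, -0.03, -0.01 and -0.07. The 24 h and 48 h comparisons share their 0 h libraries. From 24 h to 48 h, 5 of 8 were called in HepG2 (30.5% of all tested genes) and 5 in APOA4-KO (41.3%).

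Changes of 2-fold or more in either direction were reached by few of the 8 genes. In HepG2 this number was 0 at 24 h, where 3.08% of all tested genes passed both limits, and 2 at 48 h (BNIP3 and BNIP3L), where 2.18% did. In APOA4-KO it was 2 at 24 h (BNIP3 and BNIP3L, against 5.88%) and 3 at 48 h (BNIP3, BNIP3L and GABARAPL1, against 12.2%). By padj alone, 4 of 8 genes differed between the lines at 0 h (30.5% of all tested genes), 6 at 24 h (48.1%) and 8 at 48 h (50.8%). Of these, 0, 2 and 1 were also past the 2-fold limit, beside 851, 1535 and 2676 of all 19743 tested genes. The PINK1 and FUNDC1 calls at 48 h were lost in some refits, as given below. Also by padj alone, the change from 0 h itself differed between the lines for 5 of 8 genes at 24 h (32.2%) and for 6 at 48 h (36.4%).

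**Figure D1:**
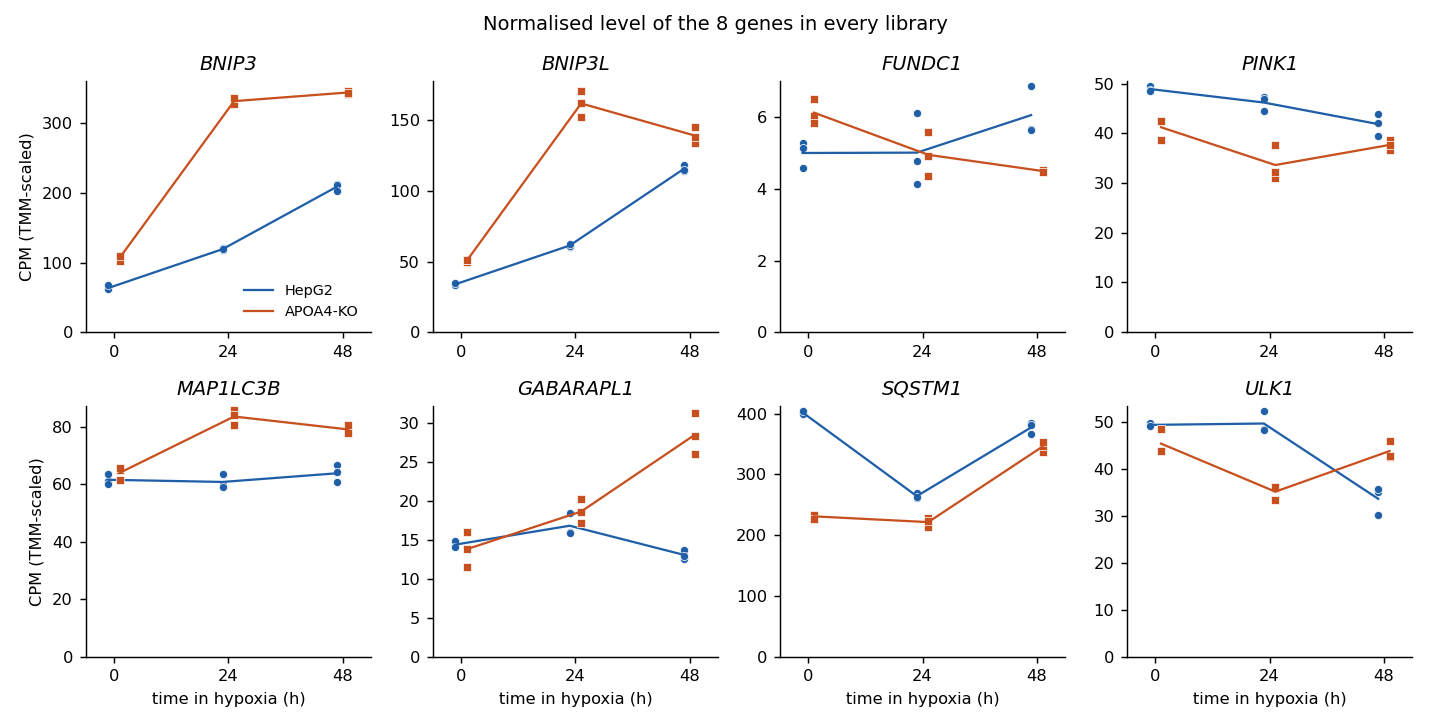
Normalised level (CPM after TMM scaling, y axis from 0) of each of the 8 genes in every library against the time in hypoxia in hours. Points are libraries and lines join the means of the 3 libraries of HepG2 (blue circles) and APOA4-KO (orange squares); at 24 h BNIP3 lay at 118 to 121 CPM in HepG2 and at 328 to 336 CPM in APOA4-KO.

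BNIP3 (ENSG00000176171, minus strand of chromosome 10, 131966455 to 131982013 on GRCh38) increased at each step in HepG2 and almost entirely within the first 24 h in APOA4-KO. In HepG2 the 3 libraries had 61.4, 61.5 and 67.4 CPM at 0 h, 118, 121 and 119 CPM at 24 h, and 213, 211 and 203 CPM at 48 h. In APOA4-KO they had 108, 103 and 110 CPM at 0 h, 332, 328 and 336 CPM at 24 h, and 347, 343 and 344 CPM at 48 h. No 2 of the 6 groups overlapped, and the APOA4-KO libraries at 0 h already lay above every HepG2 library of that time. Relative to 0 h, the log2 fold change was 0.91 (standard error 0.03, padj = 2.3e-13) at 24 h and 1.72 (standard error 0.03, padj = 3.0e-17) at 48 h in HepG2. In APOA4-KO it was 1.63 (standard error 0.03, padj = 2.3e-17) at 24 h and 1.69 (standard error 0.03, padj = 7.1e-18) at 48 h. The step from 24 h to 48 h was thus 0.81 (padj = 1.9e-12) in HepG2 and 0.05 (padj = 0.222) in APOA4-KO. With DESeq2 the step in APOA4-KO was 0.08 (padj = 0.034), and with scaling by library size alone it was -0.08 (padj = 0.069).

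Against HepG2, BNIP3 in APOA4-KO was 1.69-fold higher at 0 h (padj = 4.1e-12), 2.78-fold higher at 24 h (padj = 1.2e-16) and 1.65-fold higher at 48 h (padj = 1.1e-12). The rise from 0 h to 24 h was larger in APOA4-KO by 0.72 on the log2 scale (padj = 1.5e-09). Of the 16 other hypoxia genes, 11 also had a higher change to 24 h in APOA4-KO and 2 a lower one, with a median difference of 0.74. Among all tested genes 16.8% were higher and 15.4% lower in this contrast. Over 48 h the difference in the rise of BNIP3 was -0.03 with a standard error of 0.05 (padj = 0.639). With library size alone as the scaling this last difference was -0.21 (padj = 0.0014). Of 44 annotated BNIP3 pseudogene rows, the summed counts were at most 1.00% of the BNIP3 count in any library.

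BNIP3L (ENSG00000104765, plus strand of chromosome 8, 26382898 to 26505636), the paralogue best known for clearing mitochondria from maturing red cells, followed BNIP3 up to 24 h and then parted from it in APOA4-KO. Its libraries had 34.0, 33.3 and 34.5 CPM at 0 h, 60.6, 60.7 and 62.7 CPM at 24 h, and 118, 114 and 114 CPM at 48 h in HepG2. In APOA4-KO the values were 50.0, 51.0 and 51.0 CPM at 0 h, 162, 171 and 153 CPM at 24 h, and 134, 145 and 138 CPM at 48 h. Every library at 48 h in APOA4-KO lay below every library at 24 h, whereas in HepG2 the order was the reverse. Relative to 0 h, the log2 fold change was 0.86 at 24 h (padj = 4.9e-12) and 1.77 at 48 h (padj = 1.5e-16) in HepG2, and 1.68 (padj = 1.3e-16) and 1.46 (padj = 4.6e-16) in APOA4-KO. From 24 h to 48 h BNIP3L rose by 0.92 in HepG2 (padj = 2.5e-12) and fell by 0.22 in APOA4-KO (padj = 1.0e-04).

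The lead of APOA4-KO in BNIP3L was 1.49-fold at 0 h, 2.64-fold at 24 h and 1.20-fold at 48 h (padj = 1.3e-09, 1.7e-15 and 8.0e-06). With library size alone the BNIP3L log2 fold change between the lines at 48 h was 0.12 (padj = 0.017) in place of 0.27. The rise to 24 h was larger in APOA4-KO by 0.82 on the log2 scale (padj = 1.8e-09), and the rise to 48 h was smaller by 0.31 (standard error 0.05, padj = 1.3e-04). That scaling also took the latter difference to -0.49 and the step of BNIP3L from 24 h to 48 h in APOA4-KO to -0.35. Per gene length, the ratio of BNIP3 to BNIP3L FPKM was 1.92 ± 0.079 (SD, n = 3), 1.99 ± 0.051 and 1.85 ± 0.039 in the successive groups of HepG2. In APOA4-KO it was 2.17 ± 0.087, 2.11 ± 0.15 and 2.54 ± 0.11, and the 48 h libraries (2.42 to 2.65) did not overlap with those of any other group. BNIP3L shares 8.96% of its exonic bases with PNMA2 and SDAD1P1 of the opposite strand. PNMA2 had group means of at most 0.49 CPM, beside 33.9 CPM or more for BNIP3L. The part of PNMA2 and SDAD1P1 in the BNIP3L values was not tested.

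FUNDC1 (ENSG00000069509, minus strand of chromosome X, 44523639 to 44543001), the receptor controlled by phosphorylation, had the lowest counts of the 8 genes, at 321 to 624 per library. In HepG2 it had 5.28, 5.15 and 4.59 CPM at 0 h, 4.78, 6.13 and 4.14 CPM at 24 h, and 5.66, 5.65 and 6.88 CPM at 48 h. In APOA4-KO it had 6.03, 5.85 and 6.52 CPM at 0 h, 4.36, 4.92 and 5.59 CPM at 24 h, and 4.51, 4.53 and 4.46 CPM at 48 h. The groups of HepG2 at 0 h and 24 h overlapped, and the 48 h libraries of APOA4-KO lay below the 0 h libraries of either line. FUNDC1 fell by 0.45 on the log2 scale from 0 h to 48 h in APOA4-KO (standard error 0.14, padj = 0.012), while the values in HepG2 were 0.00 at 24 h (padj = 0.994) and 0.28 at 48 h (padj = 0.164). The change to 48 h differed between the lines by -0.72 (standard error 0.20, padj = 0.0066).

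At 48 h FUNDC1 was lower in APOA4-KO than in HepG2, with a log2 fold change of -0.43 (padj = 0.015). Without HepG2 48 h replicate 3, the library at 6.88 CPM, this was -0.33 (padj = 0.084). Without HepG2 24 h replicate 2, the library at 6.13 CPM, the step of FUNDC1 from 24 h to 48 h in HepG2 went from 0.27 (padj = 0.159) to 0.44 (padj = 0.022). Without APOA4-KO 24 h replicate 3 the change of FUNDC1 from 0 h to 24 h in APOA4-KO went from -0.31 (padj = 0.083) to -0.40 (padj = 0.042). Pseudogene rows of FUNDC1 and FUNDC2 summed to 2.25% to 13.7% of the FUNDC1 count of a library.

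PINK1 (ENSG00000158828, plus strand of chromosome 1, 20633455 to 20651511), the kinase of the ubiquitin-dependent route, was lower in APOA4-KO than in HepG2 at 0 h and 24 h and changed by at most 0.29 on the log2 scale from 0 h. HepG2 libraries had 49.6, 48.7 and 48.6 CPM at 0 h, 44.4, 47.4 and 46.9 CPM at 24 h, and 42.2, 39.5 and 43.9 CPM at 48 h. APOA4-KO libraries had 42.4, 38.7 and 42.6 CPM at 0 h, 31.0, 32.3 and 37.6 CPM at 24 h, and 36.8, 38.6 and 37.7 CPM at 48 h. The lines did not overlap at any of the 3 times. PINK1 fell by 0.23 on the log2 scale over 48 h in HepG2 (padj = 0.0084) and by 0.29 over 24 h in APOA4-KO (padj = 5.0e-04). Its value was -0.08 at 24 h in HepG2 (padj = 0.369) and -0.13 at 48 h in APOA4-KO (padj = 0.087), which library size alone took to -0.29 (padj = 3.4e-04). Without HepG2 48 h replicate 2 the PINK1 change over 48 h in HepG2 was -0.18 (padj = 0.053).

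The log2 fold change of PINK1 between the lines was -0.25 at 0 h (padj = 0.0040), -0.46 at 24 h (padj = 3.2e-06) and -0.15 at 48 h (padj = 0.045). The PINK1 call at 48 h was lost in 10 of 15 refits, with adjusted p up to 0.196 under DESeq2 and a value of -0.30 under library size alone, and so was the rise of 0.16 from 24 h to 48 h in APOA4-KO (padj = 0.039) in 8 of 15, with adjusted p up to 0.683 under library size alone. PINK1 shares 39.4% of its exonic bases with PINK1-AS, a gene of the opposite strand, and the count of PINK1-AS was 40.7% to 71.6% of that of PINK1. PINK1-AS had mean levels of 22.0, 21.5 and 20.3 CPM in HepG2 and of 17.7, 21.6 and 17.6 CPM in APOA4-KO. At 24 h in APOA4-KO it was higher than at 0 h (log2 fold change 0.29, padj = 0.0015), where PINK1 was lower. Whether the counting used strand is not stated, so reads of the shared bases cannot be told apart between both genes, and the part of PINK1-AS in the PINK1 values was not tested.

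**Figure D2:**
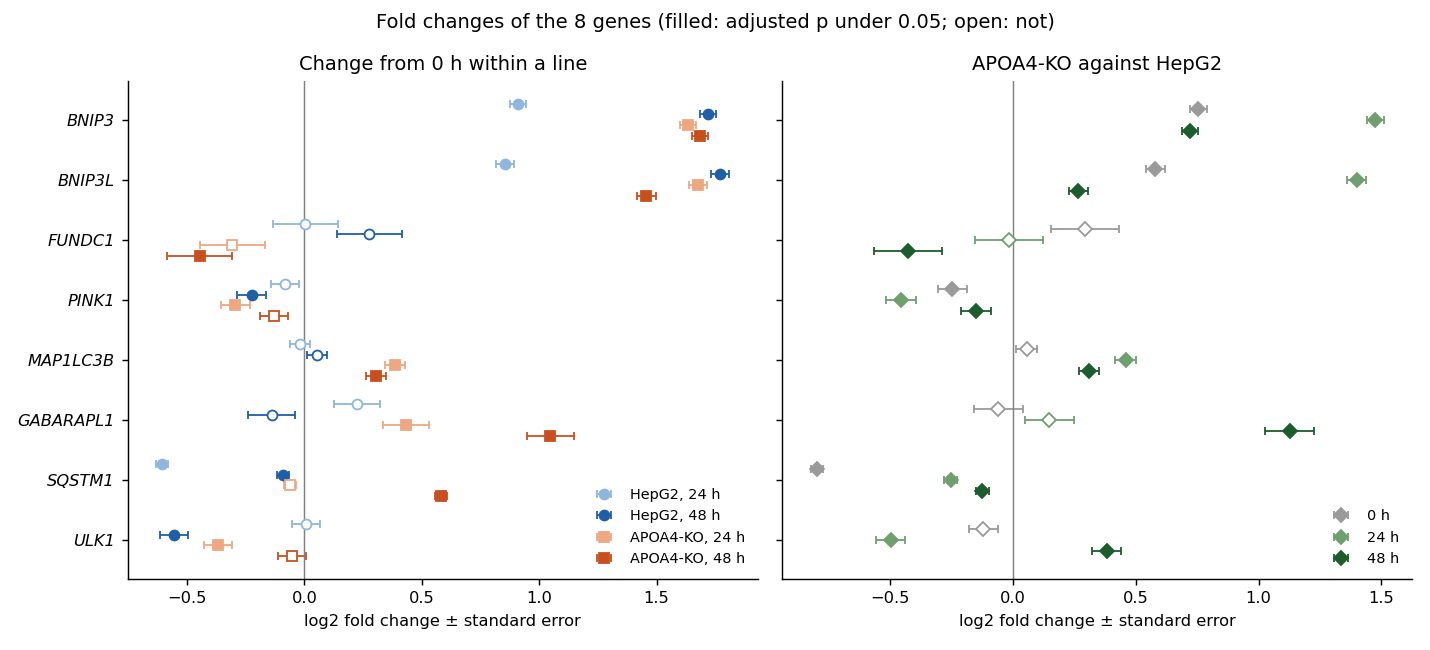
Log2 fold change from edgeR with its standard error (x axis) for each of the 8 genes (y axis), from 0 h to 24 h or 48 h within a line (left) and for APOA4-KO against HepG2 at each time (right). Filled symbols have a padj under 0.05. BNIP3 and BNIP3L lay between 0.86 and 1.77 on the left. Among the remaining genes the highest value there was 1.05, for GABARAPL1 in APOA4-KO at 48 h.

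MAP1LC3B (ENSG00000140941, plus strand of chromosome 16, 87383995 to 87404779) encodes LC3B, the ATG8 protein most used to follow autophagosomes. It rose in APOA4-KO and not detectably in HepG2. HepG2 had 61.1, 63.7 and 60.1 CPM at 0 h, 63.8, 59.6 and 59.1 CPM at 24 h, and 66.7, 60.7 and 64.2 CPM at 48 h. APOA4-KO had 65.0, 61.5 and 65.7 CPM at 0 h, 80.8, 86.1 and 84.0 CPM at 24 h, and 78.8, 80.7 and 77.9 CPM at 48 h. The 3 HepG2 groups and the 0 h group of APOA4-KO overlapped with one another, and the later APOA4-KO libraries lay above all of them. The log2 fold change from 0 h in APOA4-KO was 0.38 at 24 h (padj = 3.1e-07) and 0.31 at 48 h (padj = 5.6e-06), and in HepG2 it was -0.02 (padj = 0.827) and 0.05 (padj = 0.443). The difference between the lines was 0.40 for the change to 24 h (padj = 3.0e-05) and 0.25 for the change to 48 h (padj = 0.0023). The second MAP1LC3B value was 0.08 (padj = 0.322) when the scaling used library size alone. That scaling also took the change of MAP1LC3B to 48 h in APOA4-KO to 0.15 (padj = 0.0064) and gave MAP1LC3B a step from 24 h to 48 h of 0.16 in HepG2 (padj = 0.0065) and of -0.21 in APOA4-KO (padj = 4.3e-04). Counts of the copies MAP1LC3B2 and a pseudogene summed to at most 2.14% of the MAP1LC3B count. MAP1LC3B shares 2.82% of its exonic bases with FBXO31 of the opposite strand.

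GABARAPL1 (ENSG00000139112, plus strand of chromosome 12, 10212458 to 10223130), an ATG8 protein of the GABARAP branch, showed the largest difference between the lines at 48 h among the 8 genes. HepG2 had 14.3, 14.8 and 14.0 CPM at 0 h, 16.0, 15.9 and 18.5 CPM at 24 h, and 13.6, 12.6 and 12.9 CPM at 48 h. APOA4-KO had 13.8, 11.5 and 16.0 CPM at 0 h, 17.1, 18.5 and 20.2 CPM at 24 h, and 28.3, 31.2 and 26.0 CPM at 48 h. The lines overlapped at 0 h and 24 h, and every APOA4-KO library at 48 h lay above every other library of either line. In APOA4-KO GABARAPL1 rose by 0.43 on the log2 scale to 24 h (padj = 0.0013) and by 1.05 to 48 h (standard error 0.10, padj = 3.8e-08), which is 2.07-fold. In HepG2 the change was 0.22 at 24 h (padj = 0.105) and -0.14 at 48 h (padj = 0.369). The 24 h value in HepG2 was 0.26 (padj = 0.044) with DESeq2 and 0.27 (padj = 0.019) in a fit of those groups alone.

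From 24 h to 48 h GABARAPL1 fell by 0.36 on the log2 scale in HepG2 (padj = 0.0085) and rose by 0.62 in APOA4-KO (padj = 4.3e-05). Without HepG2 24 h replicate 3 the HepG2 value was -0.29 (padj = 0.054). Against HepG2 at 48 h GABARAPL1 was 2.18-fold higher in APOA4-KO (padj = 1.3e-08), and the change from 0 h differed between the lines by 1.19 (standard error 0.14, padj = 1.5e-06). GABARAPL1 shares 8.05% of its exonic bases with AC115676.1, a gene of the opposite strand, whose part in the GABARAPL1 values was not tested.

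SQSTM1 (ENSG00000161011, plus strand of chromosome 5, 179806398 to 179838078) encodes p62, which ties ubiquitinated cargo to ATG8 proteins and is itself degraded by autophagy. It dipped at 24 h and returned in HepG2, and in APOA4-KO it began lower and rose at 48 h. HepG2 had 403, 399 and 403 CPM at 0 h, 261, 269 and 262 CPM at 24 h, and 384, 381 and 367 CPM at 48 h. APOA4-KO had 233, 233 and 227 CPM at 0 h, 228, 214 and 223 CPM at 24 h, and 336, 347 and 354 CPM at 48 h. The lines did not overlap at any time, with APOA4-KO below HepG2 throughout. In HepG2 SQSTM1 fell by 0.61 on the log2 scale to 24 h (padj = 2.0e-12) and rose by 0.51 from 24 h to 48 h (padj = 2.9e-11). In APOA4-KO the change to 24 h was -0.06 (padj = 0.069) and that to 48 h was 0.58 (padj = 7.7e-13).

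The small net change of SQSTM1 over 48 h in HepG2 was -0.09 (padj = 0.012), and without HepG2 48 h replicate 3 it was -0.07 (padj = 0.073) and in a fit of those groups alone -0.06 (padj = 0.057). SQSTM1 was lower in APOA4-KO by 0.80 at 0 h, 0.25 at 24 h and 0.13 at 48 h on the log2 scale (padj = 4.6e-14, 1.0e-07 and 4.3e-04). The SQSTM1 value at 48 h was -0.07 with DESeq2 (padj = 0.011) and -0.28 with library size alone (padj = 1.6e-08). The change from 0 h was higher in APOA4-KO by 0.54 at 24 h (padj = 2.2e-09) and by 0.67 at 48 h (padj = 4.6e-11). SQSTM1 shares 22.0% of its exonic bases with MGAT4B and MRNIP of the opposite strand, whose group means lay between 164 and 269 CPM and between 6.15 and 8.25 CPM. MGAT4B also fell over 24 h, by 0.17 in HepG2 (padj = 1.1e-04) and by 0.45 in APOA4-KO (padj = 1.6e-10). From 24 h to 48 h it rose by 0.35 in APOA4-KO (padj = 1.1e-08), where it was 0.10 below 0 h at 48 h (padj = 0.0051). MGAT4B was lower in APOA4-KO than in HepG2 by 0.26 at 0 h, 0.54 at 24 h and 0.24 at 48 h (padj = 9.3e-07, 1.2e-11 and 7.8e-07). The part of MGAT4B in the SQSTM1 values was not tested.

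ULK1 (ENSG00000177169, plus strand of chromosome 12, 131894651 to 131923167), the kinase that starts autophagosome formation, was reduced at 24 h in APOA4-KO and at 48 h in HepG2. HepG2 had 49.2, 49.8 and 49.0 CPM at 0 h, 52.3, 48.4 and 48.1 CPM at 24 h, and 35.0, 30.2 and 35.6 CPM at 48 h. APOA4-KO had 48.5, 43.8 and 43.8 CPM at 0 h, 35.9, 33.4 and 36.0 CPM at 24 h, and 42.6, 45.9 and 42.8 CPM at 48 h. The lines did not overlap at any time, and their order was reversed between 24 h and 48 h. The log2 fold change of APOA4-KO against HepG2 was -0.12 at 0 h and was not called (padj = 0.141). It was -0.50 at 24 h (padj = 8.3e-07) and 0.38 at 48 h (padj = 2.3e-05), the latter 0.23 (padj = 0.0025) with library size alone. ULK1 fell by 0.55 on the log2 scale over 48 h in HepG2 (padj = 8.8e-07), where the value at 24 h was 0.01 (padj = 0.951). In APOA4-KO it fell by 0.37 over 24 h (padj = 3.7e-05) and was at -0.05 after 48 h (padj = 0.523). The 48 h value of ULK1 in APOA4-KO was -0.21 (padj = 0.0053) when library size alone set the scaling. The line difference in the change was -0.38 at 24 h (padj = 0.0016) and 0.50 at 48 h (padj = 8.5e-05), and the latter was 0.33 (padj = 0.0033) with library size alone.

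Levels were compared between genes by FPKM, which divides by gene length and by the library total. At 0 h in HepG2 the mean FPKM was 53.3 for SQSTM1, 15.6 for BNIP3, 12.2 for MAP1LC3B, 10.1 for PINK1, 8.16 for BNIP3L, 6.46 for ULK1, 3.97 for FUNDC1 and 3.53 for GABARAPL1, and the ranges of the last pair overlapped. At 48 h in HepG2 BNIP3 (50.7 to 52.9 FPKM) had reached SQSTM1 (49.3 to 51.1 FPKM), with overlapping ranges. In CPM, which does not divide by length, their means there were 209 and 377. The order between genes thus depends on the gene lengths the authors used. In APOA4-KO at 24 h BNIP3 had 81.6 FPKM and BNIP3L 38.9 FPKM, both above SQSTM1 at 29.2 FPKM, and at 48 h BNIP3 had 77.4, SQSTM1 41.7 and BNIP3L 30.5 FPKM. The lower end of the order also changed: in APOA4-KO at 48 h GABARAPL1 (5.80 to 6.97 FPKM) lay above ULK1 (5.08 to 5.47 FPKM), overlapped with PINK1 (6.96 to 7.26 FPKM), and exceeded FUNDC1 (3.20 to 3.28 FPKM). The mean FPKM of BNIP3 in APOA4-KO was lower at 48 h than at 24 h although its mean CPM was higher. FPKM has no TMM scaling, and CPM scaled by library size alone had the same order as FPKM, with the log2 fold change of -0.08 given above. BNIP3 and BNIP3L made up 21.0% ± 0.77 (SD, n = 3), 38.3% ± 0.39 and 48.7% ± 0.55 of the summed FPKM of the 8 genes in the successive groups of HepG2. In APOA4-KO the share was 36.9% ± 0.26, 64.7% ± 0.84 and 58.1% ± 0.32.

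MAP1LC3B and GABARAPL1 were a small part of the ATG8 transcripts. GABARAP held 85.4% ± 0.62 of the summed FPKM of the 7 ATG8 genes in HepG2 without hypoxia, 82.4% ± 0.31 after 24 h of it and 84.4% ± 0.41 after 48 h. In APOA4-KO its share was 81.0% ± 1.0, 70.6% ± 0.79 and 76.7% ± 0.45. MAP1LC3B held 9.35% ± 0.31 at 0 h, 16.0% ± 0.49 at 24 h and 10.7% ± 0.055 at 48 h in APOA4-KO, and in HepG2 its share lay between 7.34% and 8.82% in every library. GABARAPL1 held 2.07% to 3.26% in the libraries of HepG2, and means of 2.50%, 4.40% and 4.78% at 0 h, 24 h and 48 h in APOA4-KO. On the CPM scale GABARAP fell by 0.58 (log2) over 24 h in APOA4-KO (padj = 1.2e-10) and by 0.27 in HepG2 (padj = 1.0e-05). At 48 h its mean in APOA4-KO was 220 CPM, beside 215 CPM at 0 h, and was not called lower. In HepG2 GABARAP at 48 h was 0.11 below 0 h (padj = 0.029). GABARAPL2 was 0.25 higher at 48 h than at 0 h in APOA4-KO (padj = 0.022). These shares compare genes within a library and so do not depend on the scaling between libraries, but they do depend on the gene lengths the authors used.

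**Figure D3:**
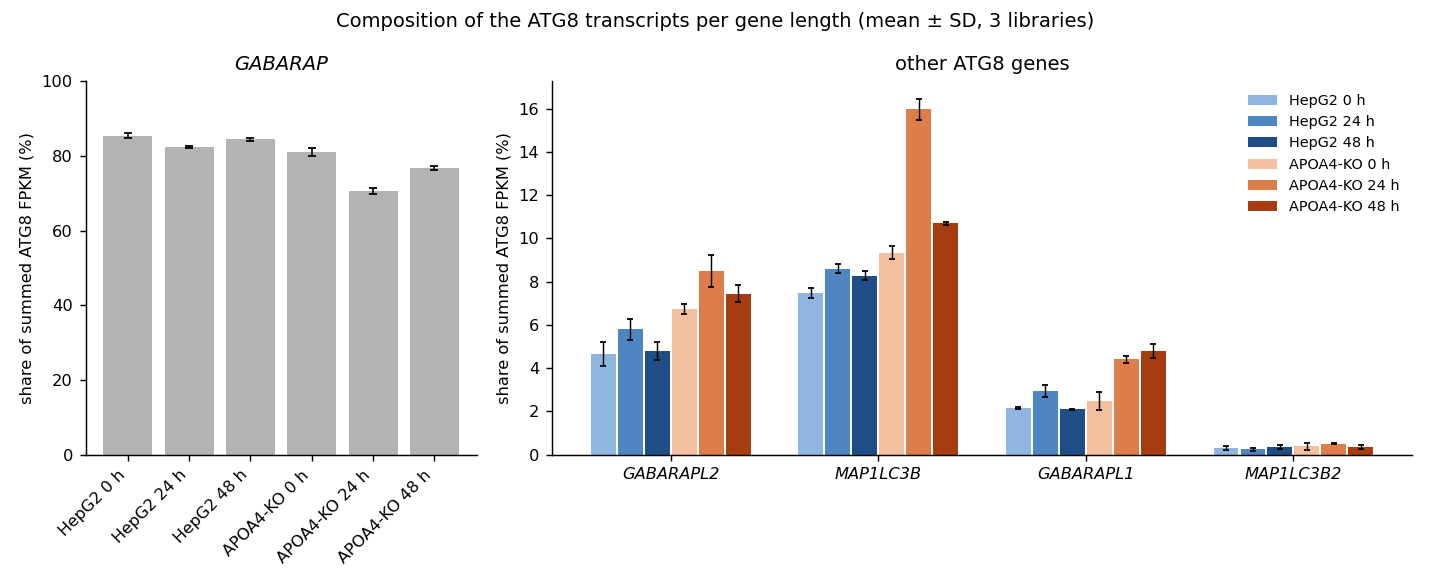
Share of the summed FPKM of 7 ATG8 genes (y axis, percent, from 0) held by GABARAP in the 6 groups (left) and by 4 other genes (right), as bars of the mean with SD over 3 libraries. MAP1LC3A and MAP1LC3C are not drawn (means of at most 0.053%); GABARAP was lowest at 70.6% in APOA4-KO at 24 h, where MAP1LC3B was highest at 16.0%.

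Over the 18 libraries the log2 CPM of BNIP3 and BNIP3L had a Pearson correlation of 0.986, and BNIP3L ranked 4 by likeness to BNIP3 among the 9838 genes that averaged 500 counts or more. C4orf3 (0.991) and INSIG2 (0.989) ranked ahead of it, and WSB1 (0.984) followed. C4orf3 encodes a small protein of the endoplasmic reticulum, INSIG2 a protein that holds back the activation of sterol synthesis, and WSB1 a subunit of a ubiquitin ligase. INSIG2 had mean levels of 46.3, 66.3 and 114 CPM in HepG2 and of 65.7, 163 and 198 CPM in APOA4-KO. WSB1 had 28.6, 35.8 and 57.3 CPM in HepG2 and 36.6, 89.3 and 85.6 CPM in APOA4-KO. By Spearman's coefficient the 5 most similar genes were all others (0 of 5 shared), so the exact list depends on the measure. Among the 8 genes MAP1LC3B (0.83) and GABARAPL1 (0.63) correlated positively with BNIP3, and PINK1 (-0.83), ULK1 (-0.65), FUNDC1 (-0.23) and SQSTM1 (-0.20) negatively. The points are libraries of 6 groups and mostly follow the group means, so these coefficients describe the groups and carry no test.

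**Figure D4:**
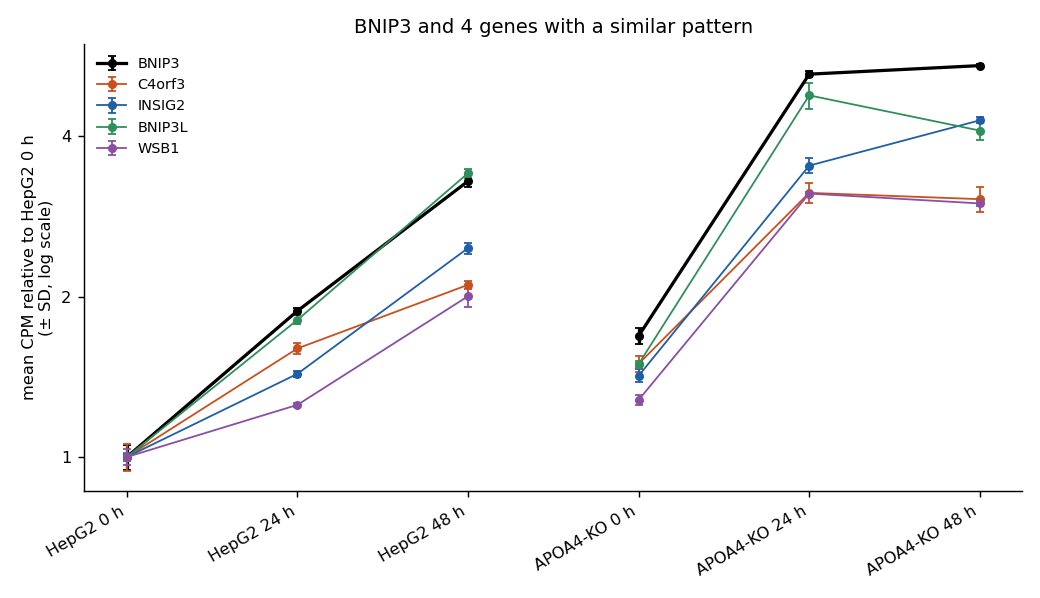
Mean CPM of BNIP3 and of 4 of the 5 genes with the highest Pearson correlation with it, divided by the mean of HepG2 at 0 h (y axis, log scale), in the 6 groups (x axis), with SD over 3 libraries. The mean of each of the 5 genes shown was higher at each later time in HepG2; from 24 h to 48 h in APOA4-KO, BNIP3L went from 162 to 139 CPM and INSIG2 from 163 to 198 CPM.

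The wider autophagy machinery was read from 8 lists with 101 genes besides the 8, of which 99 were tested. In HepG2, 15 of the 99 were higher and 38 lower at 24 h, and 19 higher and 34 lower at 48 h. In APOA4-KO, 38 were higher and 35 lower at 24 h, and 43 higher and 30 lower at 48 h. Over all tested genes, 11.4% were higher and 18.3% lower in HepG2 at 24 h, and 13.1% were higher and 14.6% lower after 48 h. For APOA4-KO these shares were 21.5% and 22.8% at 24 h, then 23.9% and 25.9%. The median log2 fold change of the 99 was -0.11 and -0.04 in HepG2 and 0.03 and 0.10 in APOA4-KO. The change from 0 h to 48 h was higher in APOA4-KO than in HepG2 for 43 of the 99 and lower for 14, with a median difference of 0.11 against -0.04 for all tested genes, of which 18.6% were higher and 17.8% lower. Scaling by library size alone shifts this contrast by -0.17, more than that median. No list was tested against other genes, and the counts below describe its members.

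Of 11 cargo receptors other than SQSTM1, 8 were higher and 1 lower at 48 h in APOA4-KO (median log2 fold change 0.32), against 5 higher and 1 lower in HepG2 (median 0.02). NBR1, which carries ubiquitinated cargo as SQSTM1 does, rose from 131 to 280 CPM in APOA4-KO (log2 fold change 1.10, padj = 2.7e-16), whereas in HepG2 its values were 112 and 113 CPM (0.02, padj = 0.673). OPTN, a receptor of the PINK1 route, rose by 1.25 in APOA4-KO (padj = 4.9e-13) and by 0.42 in HepG2 (padj = 7.8e-06). SEC62, a receptor for the endoplasmic reticulum, rose by 0.58 in APOA4-KO (padj = 1.2e-08) and by 0.21 in HepG2 (padj = 0.0044).

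Of 16 other mitophagy receptors and regulators, 8 were higher and 4 lower at 48 h in APOA4-KO, and 1 was higher and 6 lower in HepG2. TOMM20, an import receptor of the outer mitochondrial membrane, rose by 1.08 in APOA4-KO (padj = 7.7e-16) and by 0.45 in HepG2 (padj = 1.5e-09). BCL2L13, a further receptor of that membrane, rose by 0.80 in APOA4-KO (padj = 4.8e-08) and was at -0.01 in HepG2 (padj = 0.982). PPTC7, a mitochondrial phosphatase known to limit BNIP3 and BNIP3L protein, rose by 0.75 in APOA4-KO (padj = 7.5e-08) and was at -0.01 in HepG2 (padj = 0.963).

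In the initiation complex, the 3 partners of ULK1 with sizeable counts moved apart. RB1CC1 (also called FIP200) rose in APOA4-KO from 25.5 to 60.6 CPM (log2 fold change 1.25, padj = 4.6e-12) and in HepG2 from 17.9 to 25.6 CPM (0.51, padj = 4.9e-06). ATG13 fell by 0.23 in APOA4-KO (padj = 6.1e-07) and by 0.14 in HepG2 (padj = 4.9e-04). ATG101 fell by 0.18 in APOA4-KO (padj = 0.0075) and was at -0.02 in HepG2 (padj = 0.836). The fourth listed gene, ULK2, was called lower in both lines at levels of 0.610 CPM or less.

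Of 17 genes of nucleation and lipid transfer, 9 were higher and 3 lower at 48 h in APOA4-KO (median log2 fold change 0.36), and 4 were higher and 5 lower in HepG2 (median 0.01). Among those with sizeable counts, the largest called changes in APOA4-KO were in WDR45B (1.29, padj = 5.9e-15), which binds the lipid of the early autophagosome, in ATG14 (0.83, padj = 3.2e-07) and in PIK3C3 (0.66, padj = 6.2e-09), the lipid kinase that ATG14 directs. In HepG2 WDR45B rose by 0.51 (padj = 2.3e-08) and PIK3C3 by 0.55 (padj = 3.8e-07), and ATG14 was at 0.20 (padj = 0.125). Of 10 genes that conjugate or process ATG8 proteins, 1 was higher and 2 lower in HepG2, and 0 were higher and 3 lower in APOA4-KO, among them ATG4B (-0.39, padj = 4.6e-09) and ATG7 (-0.30, padj = 0.0037). In HepG2 ATG4B rose by 0.13 (padj = 0.0038) and ATG7 was at -0.12 (padj = 0.303). ATG4D fell by 0.45 in HepG2 (padj = 0.0078) and was at 0.29 in APOA4-KO (padj = 0.050).

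Fusion and lysosome genes went both ways, with 8 of 21 higher and 10 lower at 48 h in APOA4-KO (median -0.02) and 1 higher and 9 lower in HepG2 (median -0.09). ATP6V0D1, a subunit of the proton pump of the lysosome, fell from 97.6 to 44.5 CPM in APOA4-KO (log2 fold change -1.13, padj = 3.3e-14) and from 107 to 87.0 CPM in HepG2 (-0.30, padj = 1.2e-05). MCOLN1, a lysosomal ion channel, fell by 0.78 in APOA4-KO (padj = 8.4e-06) and by 0.53 in HepG2 (padj = 9.2e-04). GLA, a lysosomal galactosidase, fell by 0.59 in APOA4-KO (padj = 3.1e-07) and was at -0.09 in HepG2 (padj = 0.390).

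Among 17 transcription factors and kinases that control autophagy, 8 were higher and 6 lower at 48 h in APOA4-KO, and 6 higher and 8 lower in HepG2. BHLHE40, a transcriptional repressor induced by hypoxia, rose from 77.6 to 599 CPM in APOA4-KO (log2 fold change 2.95, padj = 8.0e-21) and from 49.3 to 160 CPM in HepG2 (1.70, padj = 7.0e-17). FOXO1 rose by 1.61 in APOA4-KO (padj = 1.5e-13) and by 0.31 in HepG2 (padj = 9.9e-04). DDIT4, an inhibitor of the mTORC1 kinase complex, rose by 1.43 in APOA4-KO (padj = 3.1e-15) and by 0.85 in HepG2 (padj = 3.3e-11).

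**Figure D5:**
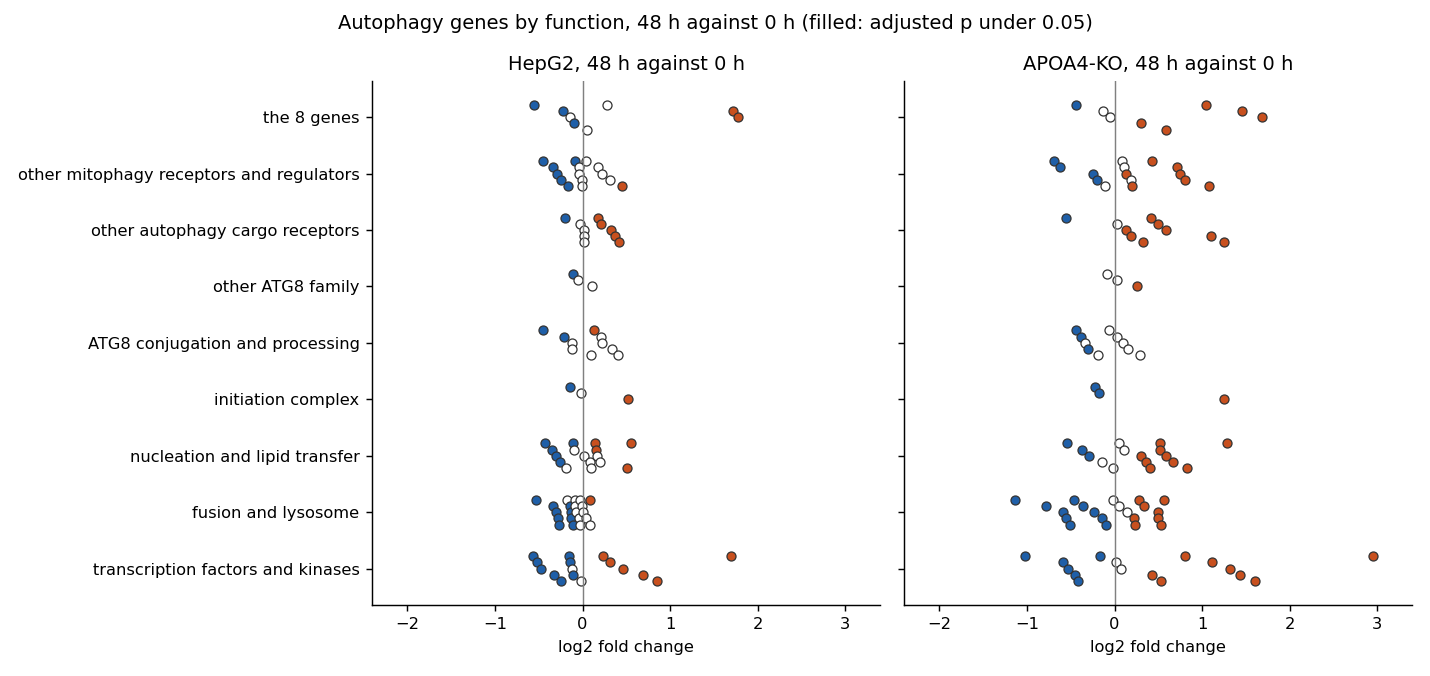
Log2 fold change from 0 h to 48 h (x axis) of tested genes in HepG2 (left) and APOA4-KO (right), by functional list (y axis); filled points have an padj under 0.05, orange for higher and blue for lower, and points are spread vertically for legibility. Genes with a mean under 1 CPM in both groups are not drawn; 43 of 99 list genes were higher in APOA4-KO and 19 in HepG2.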

How the data were processed

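Libraries were made from poly(A) RNA of HepG2 and APOA4-KO cells, with 3 for each line and time, and grouped by their labels. The authors used fastp for trimming and HISAT2 for alignment to GRCh38.p13, and deposited whole-number counts of 61806 genes, without normalization, and FPKM values of 33601 genes. The methods name featureCounts for the counting and the labels list StringTie, and the use of strand is not stated. In every library the values 4, 8 and 12 occurred more often than adjacent values (by 2.66 to 3.12, 2.06 to 2.55 and 1.58 to 2.19 times), so that a count need not be 1 read pair.

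The deposited counts were filtered with filterByExpr, which left 19743 genes, scaled with TMM and fitted with the quasi-likelihood model of edgeR 4.0.16 in R 4.3.3, with 1 coefficient for each of 6 groups and all 18 libraries. The tests covered 11 contrasts, with Benjamini-Hochberg adjustment over all tested genes. CPM values are TMM-scaled. The deposited FPKM values were used only to compare levels between genes. The procedure was tested on simulated data. Refits used relative log expression size factors, library size alone, no filter or a filter of at least 1 CPM in 3 libraries, DESeq2 1.42.0, limma-voom (limma 3.58.1), only the groups compared, a replicate block, counts divided by 4, and each library left out in turn.

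The 8 genes, the other lists and the tests were chosen with earlier results of these data known. Named besides the 8 are, for each list, at most 3 genes with the largest change from 0 h to 48 h in either line among those with an adjusted p under 0.05 and 500 or more counts on average in whichever group was higher, the 5 genes most correlated with BNIP3 (of which 1 is not reported here), APOA4 and EPO. PINK1-AS, MGAT4B, MRNIP, PNMA2, SDAD1P1, AC115676.1 and FBXO31, which overlap a member, and the copies of members were named outside this rule. ULK2, MAP1LC3A, MAP1LC3B2, MAP1LC3C, PDGFRB, CD68 and the single hepatocyte-lineage markers were named after their values were seen. No 2 libraries held identical counts. Gene positions are from GENCODE 29 and promoter sequences from RefSeq on GRCh38.p14.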

Additional observations from a re-analysis of the deposited data

Results flagged for a closer look

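For 5 of the 8 genes at 24 h and 6 at 48 h, the change from 0 h in hypoxia differed between APOA4-KO and HepG2 in a test of the difference itself (edgeR with Benjamini-Hochberg adjusted p, padj; log2 scale, APOA4-KO minus HepG2, 3 libraries in each of the 4 groups involved). At 24 h these differences were 0.72 for BNIP3, 0.82 for BNIP3L, 0.40 for MAP1LC3B, 0.54 for SQSTM1 and -0.38 for ULK1, beside 32.2% of all tested genes past the threshold. At 48 h they were -0.31 for BNIP3L, -0.72 for FUNDC1, 0.25 for MAP1LC3B, 1.19 for GABARAPL1, 0.67 for SQSTM1 and 0.50 for ULK1, beside 36.4%. With library size alone the MAP1LC3B value at 48 h was 0.08 (padj = 0.322). BNIP3L and ULK1 changed sign between both times. For PINK1 the difference was -0.21 at 24 h (padj = 0.071) and 0.09 at 48 h (padj = 0.448). The difference of PINK1 at 24 h passed the threshold in 5 of 21 refits, and without APOA4-KO 24 h replicate 3 it was -0.30 (padj = 0.0030).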

How the results depend on the processing

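Of 88 fold changes of the 8 genes over 11 contrasts, 59 were past the threshold, and 52 of these stayed past it under every alternative. None of the 59 changed direction. The 7 that were lost under some alternative are the PINK1, SQSTM1, GABARAPL1, FUNDC1 and MAP1LC3B values given beside their results, and the cause was not tested. Another 13 passed under some alternative. The counts of called genes, among the 8 and over all tested genes, stayed within 1.5 times under each alternative. Replicate numbers did not pair libraries: of 27 pairs of the same number, 3 had deviations from the group means that correlated over 0.1 (range -0.21 to 0.16). In the fit with a replicate block none of the 88 fold changes changed sides; the line difference of BNIP3 at 48 h, for example, was -0.04 (adjusted p = 0.644) with the block.

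Values near 0 that changed sign were these. For FUNDC1 in HepG2 at 24 h against 0 h, the log2 fold change was -0.069 with library size alone, -0.0050 with limma-voom and -0.17 to 0.12 when each library was left out. For MAP1LC3B in that contrast it was 0.017 with relative log expression size factors, 0.0016 with the filter at 1 CPM, 0.017 with DESeq2, 0.032 with only the groups compared and -0.053 to 0.0058 when each library was left out. For ULK1 it was -0.064 with library size alone and -0.031 to 0.030 when each library was left out. With library size alone, BNIP3 in APOA4-KO from 24 h to 48 h was at -0.076, FUNDC1 in APOA4-KO against HepG2 at 24 h at 0.047 and the line difference of PINK1 at 48 h at -0.078. That FUNDC1 value was 0.0016 with the filter at 1 CPM and -0.14 to 0.15 when each library was left out. For GABARAPL1 in APOA4-KO against HepG2 at 0 h the range without each library was -0.18 to 0.053, and the line difference of BNIP3 at 48 h was 0.0020 with only the groups compared.

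Library size alone shifted the median of all genes by -0.16 for APOA4-KO at 48 h against 0 h, by -0.15 against HepG2 at 48 h and by -0.17 for the line difference at 48 h, and the share of called genes that were higher fell from 48.0% to 34.4%, from 46.3% to 34.7% and from 51.1% to 32.1%. It also moved this share from 38.4% to 26.2% for HepG2 at 24 h against 0 h, from 61.2% to 76.2% for HepG2 and from 52.9% to 35.9% for APOA4-KO at 48 h against 24 h. Changes in those contrasts of the size of these shifts depend on the scaling.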
